A study of Mus musculus with 42 samples.

Results

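The genes of the mitochondrial respiratory chain and ATP synthase were followed in mouse liver RNA under acute and chronic corticosterone, with and without enzalutamide. Members were chosen by symbol (mt-Nd, mt-Co, mt-Atp and mt-Cytb; Nduf, Uqcr, Atp5, Cox4 to Cox8, Sdha to Sdhd) at a mean CPM (counts scaled to the library total) of 1 or more in both count tables, without pseudogenes. Of 55573 gene IDs, 124 carried such a symbol: 9 were pseudogenes, 12 lay below 1 CPM in both tables, Cox7a1 reached it only in the chronic table, and 102 were members. Of these, 12 are encoded in mitochondrial DNA (mtDNA) and 90 in the nucleus: 76 subunits, 12 assembly factors (Ndufaf and Sdhaf genes), the supercomplex factor Cox7a2l, and Atp5s. Complex I held 50 members, complex II 8, complex III 9, complex IV 16 and complex V 19.

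Complexes I to IV pass electrons from NADH and succinate to oxygen and pump protons, except complex II, and complex V uses the proton gradient to make ATP. Complex II is encoded wholly in the nucleus; the other complexes combine subunits from both genomes, so their assembly needs transcripts made in separate compartments. Hepatocytes are rich in mitochondria, which supply ATP for gluconeogenesis and urea synthesis, and glucocorticoids are known regulators of hepatic energy metabolism.

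The libraries came from livers of male C57B6/J mice. The acute arm had 4 groups: vehicle, corticosterone (CORT), which is the chief adrenal glucocorticoid in rodents, enzalutamide (ENZA), which blocks the androgen receptor, and the combination. The chronic arm had 3 groups, given vehicle, CORT or CORT + ENZA, with no group given ENZA alone. Each group had 6 libraries. The labels used here state no dose, time or age for these groups. The arms used different RNA kits and separate tables, so each change below lies within 1 arm, and levels set across arms carry that difference. Library numbers are not stated to be separate animals, so p-values measure the spread between libraries.

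Gene counts per library ran from 18674151 to 20464521 in the acute arm and from 15381724 to 19581723 in the chronic arm. The 6 hepatocyte markers summed to 88958 to 136404 CPM in acute libraries, where all groups overlapped. In chronic livers they summed to 102399 to 113656 CPM under vehicle, 90010 to 123664 under CORT and 65146 to 93719 under CORT + ENZA, so the last group lay below vehicle without overlap. In chronic livers, Fkbp5, a glucocorticoid receptor target, was at 10.0 to 66.1 CPM under vehicle, 163 to 314 under CORT and 81.4 to 151 under CORT + ENZA. In acute livers it was at 32.7 to 149 under vehicle and 172 to 235 under CORT. Tsc22d3 and Per1, also listed as glucocorticoid-induced, overlapped between vehicle and CORT in both arms. Mean Tsc22d3 was 30.3 CPM under vehicle and 53.9 under CORT in acute livers, and 134 and 199 in chronic ones. Mean Per1 was 37.5 and 37.0 CPM in acute livers, and 19.7 and 37.1 in chronic ones. For CORT against vehicle, Tsc22d3 was called higher in acute livers (log2 fold change 0.83 ± 0.17 (SE), edgeR adjusted p = 0.0092). In chronic livers Tsc22d3 was not called (0.58 ± 0.26, 0.143). Per1 was called higher in chronic livers (0.91 ± 0.25, 0.0154) but not in acute ones (-0.02 ± 0.31, 0.985). Cyp2c29 and Cyp2c55, also checked, rose with acute ENZA against vehicle (1.44 ± 0.14, 9.8e-07, and 2.55 ± 0.28, 1.2e-05). Libraries numbered 10 and 15 of chronic vehicle and 5 of chronic CORT + ENZA held skeletal muscle markers at 30.9, 92.5 and 243 summed CPM, against at most 2.49 in the other 15 chronic libraries. Pancreatic acinar markers also separated chronic vehicle (28.2 to 41.0 CPM) from chronic CORT (6.03 to 21.03) and CORT + ENZA (5.85 to 10.1), with Pnlip at 0 counts in all 3 groups and Prss2 at 0 in chronic vehicle. Only 2 of the 4 listed genes had counts in chronic vehicle, so this sum is not read as acinar cells. The 4 B cell markers, all counted, were lower under CORT than under vehicle without overlap in both arms (2.31 to 6.04 against 1.22 to 2.26 CPM in acute and 2.55 to 7.66 against 0.0511 to 1.33 CPM in chronic livers, vehicle first). The 4 T and NK cell markers, all counted, separated the same chronic groups (1.03 to 2.69 against 0.212 to 0.522 CPM). The part of these cell types in the results below was not tested. In bulk tissue, fewer cells of a type and less RNA per cell cannot be told apart.

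The mtDNA-encoded members fell into separate ranges of level. In acute vehicle livers, per kilobase of exon, mt-Co1 was highest at 17809 CPM per kb, followed by mt-Cytb (12978), mt-Nd2 (8539), mt-Nd1 (8317), mt-Nd4 (5550) and mt-Nd5 (3822). The same 6 genes led in the same order in chronic vehicle livers, from 15125 CPM per kb for mt-Co1 to 2462 for mt-Nd5. mt-Co1 encodes the catalytic core of complex IV, mt-Cytb that of complex III, and the mt-Nd genes the membrane arm of complex I. The median nuclear-encoded member was at 44.95 CPM per kb in acute and 60.0 in chronic vehicle livers.

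The other mtDNA-encoded members were counted at a small part of these levels. Over all libraries of an arm, mt-Co2 averaged 7.30 CPM (acute) and 9.92 CPM (chronic), mt-Co3 13.8 and 8.66, mt-Atp6 9.02 and 7.87, and mt-Nd3 1.20 and 1.56. mt-Nd4l, at 0.762 and 0.709 CPM, missed the threshold. These 5 genes share most of their 50-base stretches with other annotated genes. The share was 100% for mt-Co2, 99.9% for mt-Co3, 99.5% for mt-Atp6, 98.0% for mt-Nd3 and 98.8% for mt-Nd4l. The gene sharing most was, in this order, Gm28661, Gm28437, Gm10925, Gm28438 and Gm10222. For mt-Co2 and mt-Atp6 the share was found over 2 genes, and for the others in the named gene only. Whether shared sequence set their levels was not tested, and their values are uncertain. mt-Co1 shares 51.1% and mt-Nd4 62.2% of its stretches, and 24 of the 90 nuclear members share 10% or more.

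A pair of mtDNA genes was low without such a copy among annotated transcripts. Copies elsewhere in the genome were not searched. mt-Atp8, which overlaps mt-Atp6 (M:7766-7969 and M:7927-8607, GRCm38), averaged 1.70 CPM in acute and 1.72 in chronic livers. mt-Nd6, the only protein gene on the light strand, averaged 5.06 CPM in acute and 54.5 CPM in chronic livers.

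**Figure D1:**
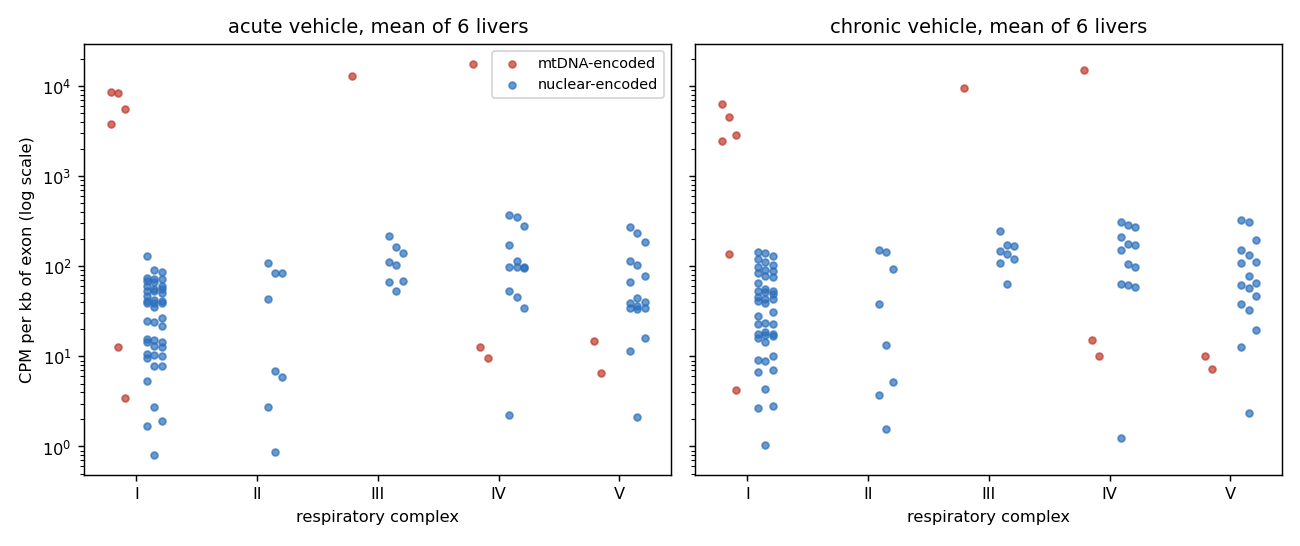
Mean level per kilobase of exon (CPM per kb, log scale) of each member in the vehicle groups, by respiratory complex, red for mtDNA-encoded and blue for nuclear-encoded genes; each point is 1 gene, the mean of 6 libraries. The 6 mtDNA genes above 1000 CPM stand over all nuclear members, and the other mtDNA genes lie among or below them.

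Among nuclear members the order of levels was led by complexes IV and V. In acute vehicle livers the highest were the complex IV subunits Cox6a1 (367 CPM per kb), Cox8a (349) and Cox6b1 (277), then Atp5a1 (271) and Atp5b (235), which encode the alpha and beta subunits of the ATP synthase catalytic head. In chronic vehicle livers the leaders were Atp5a1 (329), Atp5b (313) and Cox6b1 (312). Uqcr11 led complex III (216 acute, 246 chronic) and Sdhd complex II (108 and 152). Ndufb11 led complex I in acute livers (132), and Ndufa1 in chronic livers (143).

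Counts on mtDNA-encoded members made up 6.19 to 11.0% of all gene counts in acute and 4.37 to 6.28% in chronic libraries, and nuclear members 0.837 to 1.20% and 1.09 to 1.40%. The ratio of mtDNA-encoded to nuclear-encoded counts was lowest in acute vehicle livers among the acute groups, with a lowest, median and highest log2 ratio of 2.49, 2.89 and 3.06. It was 2.87, 3.07 and 3.26 under acute CORT, 3.00, 3.19 and 3.50 under acute ENZA, and 3.04, 3.20 and 3.22 under acute CORT + ENZA. All groups of the acute arm overlapped. Relative to vehicle, the mean log2 ratio was 0.20 higher with CORT, 0.35 higher with ENZA and 0.32 higher with both, against spreads within groups of 0.19, 0.19 and 0.15 (SD). As a difference of mean log2 levels over members, which weights genes equally, the values were 0.02 with CORT, 0.24 with ENZA and 0.18 with both.

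In chronic livers the log2 ratio was 1.89, 2.09 and 2.22 under vehicle, 1.81, 1.96 and 2.24 under CORT, and 2.09, 2.21 and 2.33 under CORT + ENZA. The 3 groups overlapped. The mean differed by -0.09 between CORT and vehicle, by 0.23 between CORT + ENZA and CORT, and by 0.13 between CORT + ENZA and vehicle, with within-group SDs of 0.15, 0.14 and 0.10. The ratio is a sum led by mt-Co1 and mt-Cytb and is given as a description, with no test.

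**Figure D2:**
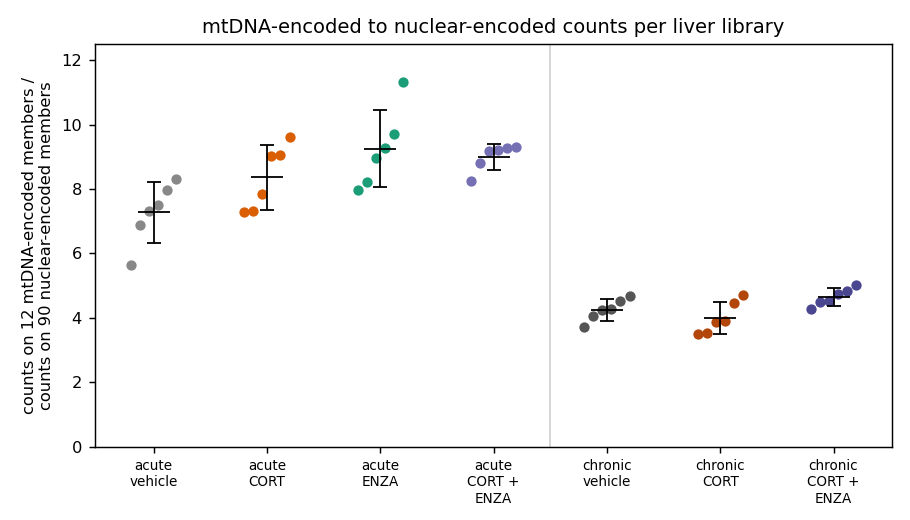
Counts on the 12 mtDNA-encoded members divided by counts on the 90 nuclear-encoded members in each of 42 libraries (points), with mean and SD of 6 per group (black). Acute libraries lie between 5.63 and 11.3 and chronic ones between 3.496 and 5.03, and groups overlap within each arm.

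Acute treatment left no member past the test. With edgeR's quasi-likelihood test and Benjamini-Hochberg adjustment over all genes, 0 of 102 members passed an adjusted p of 0.05 in each of the 6 acute comparisons. Over all 13733 genes tested, the share called was 1.62% for CORT against vehicle, 1.31% for ENZA against vehicle, 0.175% for CORT + ENZA against CORT, 1.81% for CORT + ENZA against ENZA, 2.47% for CORT + ENZA against vehicle, and 0% for the interaction of CORT and ENZA. At an unadjusted p of 0.05, the members counted were 6, 14, 2, 2, 7 and 2 in the same order. These are 5.88, 13.7, 1.96, 1.96, 6.86 and 1.96% of members, against 14.1, 14.6, 5.07, 14.9, 16.1 and 3.65% of all genes tested, so no comparison had a larger share among members than over the whole table.

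For acute ENZA against vehicle, 5 of the 6 highly counted mtDNA genes had an unadjusted p under 0.05, against 14.6% of all genes, and all 6 estimates lay above 0, against 49.5% of all genes. Over all 12 mtDNA members, 8 estimates lay above 0 and 6 had such a p. These genes share libraries and scaling, so the counts are a description. mt-Co1 was at 21784, 28630 and 33505 CPM (lowest, median, highest) in vehicle and 31516, 35964 and 39173 in ENZA livers, which overlap. Its log2 fold change was 0.37 ± 0.11 (SE), with an edgeR adjusted p of 0.094. DESeq2 gave an adjusted p of 0.0189 for this gene, and a fit with library-number sets as a term gave 0.0497. The values of mt-Nd2 (0.43 ± 0.14), mt-Cytb (0.33 ± 0.13), mt-Nd1 (0.32 ± 0.13), mt-Nd5 (0.30 ± 0.13) and mt-Nd4 (0.17 ± 0.16) were on the same side and missed the threshold; mt-Cytb alone had an adjusted p of 0.0465 with limma-voom. The median log2 fold change was 0.23 over the 12 mtDNA genes, -0.05 over the 90 nuclear genes and 0.00 over all genes tested. Without L19A and L36A, 2 libraries described further on, the nuclear median was 0.03 and that of mtDNA genes 0.28.

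For acute CORT against vehicle the medians were 0.12 for mtDNA genes and -0.02 for nuclear genes, and for acute CORT + ENZA against vehicle 0.26 and -0.03. Without L19A and L36A the nuclear medians were 0.03 and -0.05. In the latter, mt-Nd1 had a log2 fold change of 0.41 ± 0.13 (edgeR adjusted p = 0.106) and mt-Nd5 of 0.39 ± 0.13 (adjusted p = 0.105). DESeq2 gave adjusted p of 0.0488 and 0.0494 for these genes, and mt-Nd1 also passed without vehicle library L19A. The comparisons with vehicle share the same 6 control libraries. mt-Co3 had an estimate of 2.71 ± 0.77 for CORT + ENZA against CORT that rested on library L30A, at 183 CPM against 5.09 to 12.4 CPM in the other 5 libraries; the edgeR adjusted p was 0.341.

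None of the 90 nuclear members reached an absolute log2 fold change of 0.5 in any of the 9 comparisons. The median standard error of a nuclear member was 0.11 in the acute comparisons with vehicle and in all 3 chronic ones. The corresponding share of all genes tested at 0.5 or more was 7.09% for acute CORT against vehicle and 18.1% for chronic CORT against vehicle, many of them counted at lower levels.

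**Figure D3:**
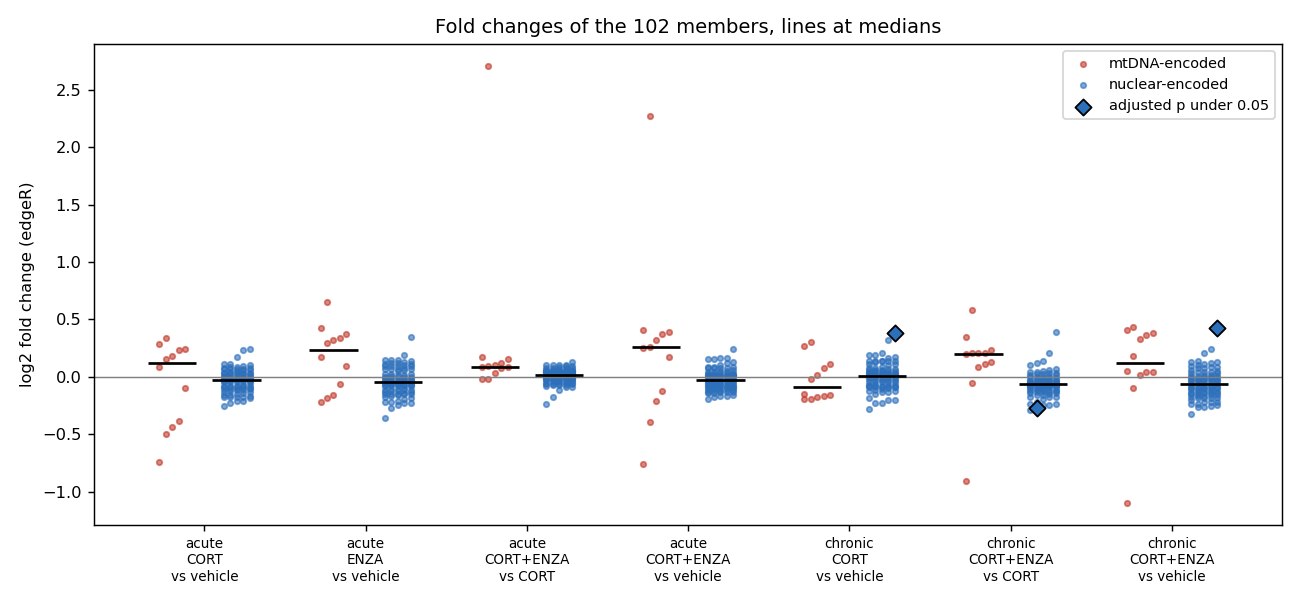
log2 fold change (edgeR) of the 102 members in 7 comparisons, red for mtDNA-encoded and blue for nuclear-encoded genes, black lines at medians and diamonds for adjusted p under 0.05. Nuclear members lie between -0.36 and 0.43 in these comparisons, and the diamonds are Ndufaf4 (0.38 and 0.43) and Sdhd (-0.27); the 2 points above 2 are mt-Co3.

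Chronic CORT changed 1 member. Ndufaf4, an assembly factor that helps build the membrane arm of complex I, rose with chronic CORT. Its level was 21.2, 26.1 and 29.7 CPM (lowest, median, highest) in chronic vehicle livers, 30.4, 34.8 and 36.1 with CORT, and 28.98, 35.96 and 41.6 with CORT + ENZA. Every CORT library lay above every vehicle library, while CORT + ENZA overlapped with vehicle in its lowest library. The log2 fold change was 0.38 ± 0.09 for CORT against vehicle (edgeR adjusted p = 0.00585) and 0.43 ± 0.09 for CORT + ENZA against vehicle (adjusted p = 0.00192). Between CORT + ENZA and CORT it was 0.05 ± 0.09 (adjusted p = 0.765). The gene passed in all 44 fits made for both comparisons with vehicle, including those without the libraries with muscle markers (adjusted p = 0.0259 and 0.0179).

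In acute livers Ndufaf4 was at 25.3, 30.7 and 35.1 CPM in vehicle, 32.04, 36.2 and 39.5 with CORT, 29.9, 32.1 and 34.4 with ENZA, and 31.8, 35.7 and 39.6 with both. These groups overlapped. The estimates against vehicle were 0.24 ± 0.08 for CORT (edgeR adjusted p = 0.149), 0.08 ± 0.08 for ENZA (0.693) and 0.24 ± 0.08 for both (0.12). Ndufaf4 is a low member per length, at 7.80 CPM per kb in acute and 6.69 in chronic vehicle livers, and none of its 50-base stretches occurs in another annotated transcript. It lies at 4:24898083-24905001 (GRCm38, plus strand).

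The count of 1 of 102 members stood beside 18.3% of the 13099 genes called over the whole table for chronic CORT against vehicle, 18.6% for chronic CORT + ENZA against vehicle, and 11.8% for chronic CORT + ENZA against CORT. The called member was Ndufaf4 in each comparison with vehicle. At an unadjusted p of 0.05 there were 4 members (3.92%) against 31.9% of all genes for CORT, and 10 (9.80%) against 31.4% for CORT + ENZA against vehicle. For CORT against vehicle, the median log2 fold change was -0.09 over mtDNA genes, 0.01 over nuclear genes and -0.01 over all genes. Without libraries 11 and 18 these were 0.12 over mtDNA and 0.08 over nuclear genes.

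Sdhd was the member called for chronic CORT + ENZA against CORT. It encodes the small membrane anchor of succinate dehydrogenase, which is complex II of the chain and an enzyme of the citric acid cycle. It was at 171, 187 and 206 CPM under vehicle, 172, 195 and 223 under CORT, and 148, 162 and 176 under CORT + ENZA. The last group was lowest, and its highest libraries overlapped with the lowest of the others. The log2 fold change against CORT was -0.27 ± 0.08 (edgeR adjusted p = 0.0299), and against vehicle -0.20 ± 0.08 (adjusted p = 0.0828). The call was lost in 7 of 22 fits, with adjusted p of 0.058 without the low-count filter, 0.0667 without the libraries with muscle markers, and up to 0.0765 with 1 library left out (CORT 1, 2 or 3, or CORT + ENZA 5 or 16).

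The other subunits of complex II did not follow Sdhd past the test. Sdha, the flavoprotein, was at 560, 597 and 627 CPM in chronic vehicle, 502, 540 and 583 with CORT, and 473, 594 and 629 with CORT + ENZA. Sdhb, the iron-sulfur subunit, had medians of 200, 208 and 197 CPM in the same order, and Sdhc, the other anchor, of 122, 121 and 126. Over the 3 chronic comparisons, the log2 fold changes of Sdha, Sdhb and Sdhc lay between -0.13 and 0.10, with adjusted p of 0.251 or more. In acute livers Sdhd was at 118, 124 and 126 CPM with CORT + ENZA and at 137, 143 and 149 with ENZA alone; these groups did not overlap, and the estimate was -0.22 ± 0.08 (edgeR adjusted p = 0.193). It passed in 2 alternative fits, with limma-voom (0.0259) and without libraries L19A and L36A (0.0387).

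**Figure D4:**
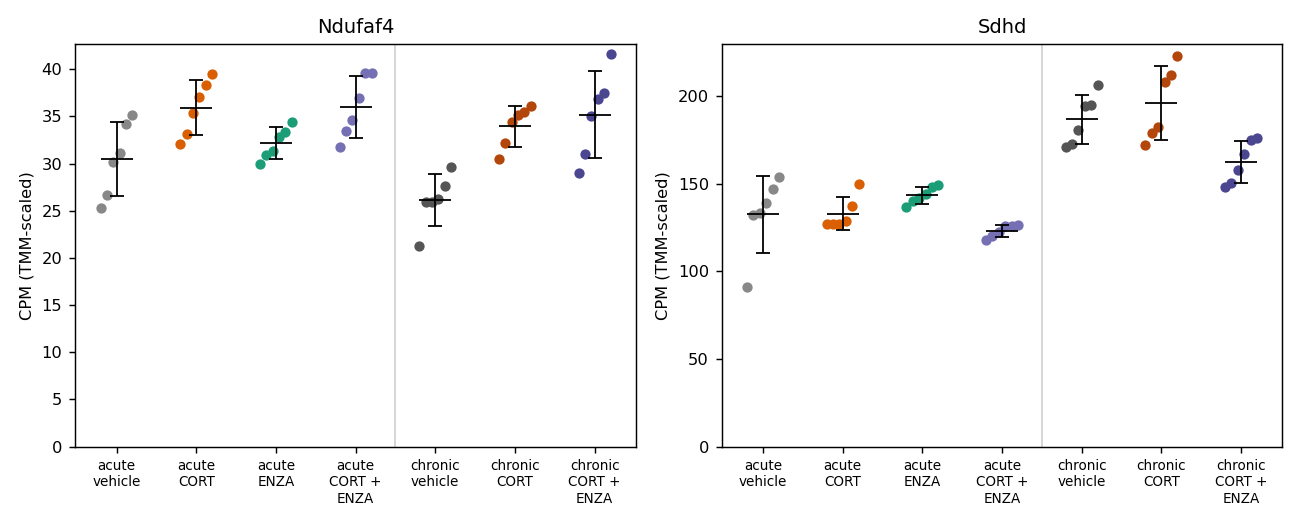
Level of Ndufaf4 and Sdhd in each library (points, CPM scaled by TMM) with mean and SD of 6 per group (black), by group. For Ndufaf4 the chronic CORT libraries (30.4 to 36.1) lie above chronic vehicle (21.2 to 29.7); for Sdhd chronic CORT + ENZA (148 to 176) lies low beside chronic CORT (172 to 223).

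The region around the Ndufaf4 and Sdhd starts is shown because these are the members that passed the test, with Cox6a1, a nuclear member of high level whose values did not pass, beside them. Each sequence runs from 250 bases before to 50 after the RefSeq start (GRCm38.p6), in the direction of transcription. Capitals mark matches on either strand to NRF1 (CGCATGCG), ERR (TCAAGGTCA), ETS/GABP (CCGGAAG), YY1 (AAGATGGCG) or glucocorticoid receptor half-site (AGAACA) letters. The windows are chr4:24897833-24898132 (plus strand), chr9:50603800-50604099 (minus) and chr5:115348909-115349208 (minus).
Ndufaf4: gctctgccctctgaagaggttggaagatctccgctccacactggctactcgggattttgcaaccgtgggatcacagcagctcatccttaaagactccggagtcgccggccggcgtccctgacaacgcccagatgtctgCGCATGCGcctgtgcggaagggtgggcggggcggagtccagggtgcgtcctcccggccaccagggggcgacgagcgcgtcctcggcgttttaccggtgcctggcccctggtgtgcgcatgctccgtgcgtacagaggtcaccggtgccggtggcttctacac
Sdhd: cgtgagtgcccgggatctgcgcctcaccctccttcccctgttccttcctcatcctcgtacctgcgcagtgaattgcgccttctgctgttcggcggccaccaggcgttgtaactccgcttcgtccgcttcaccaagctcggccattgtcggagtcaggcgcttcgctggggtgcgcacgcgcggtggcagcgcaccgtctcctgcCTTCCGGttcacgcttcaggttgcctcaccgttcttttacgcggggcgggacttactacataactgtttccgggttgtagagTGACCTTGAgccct
Cox6a1: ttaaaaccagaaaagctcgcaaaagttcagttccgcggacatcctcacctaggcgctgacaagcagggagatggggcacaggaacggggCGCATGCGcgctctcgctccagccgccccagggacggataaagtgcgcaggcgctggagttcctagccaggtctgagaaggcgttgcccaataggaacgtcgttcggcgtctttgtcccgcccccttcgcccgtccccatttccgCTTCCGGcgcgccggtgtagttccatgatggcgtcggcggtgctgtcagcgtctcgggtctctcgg
The Ndufaf4 window held the NRF1 letters, Sdhd the ETS and ERR letters on the opposite strand, and Cox6a1 the NRF1 and ETS letters.

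NRF1, GABP, ERR and YY1 are transcription factors with known roles in nuclear respiratory genes. Of 76 member promoters found in RefSeq, 10 (13.2%) held the NRF1 letters, against 2.54% of 17492 promoters of coding genes. ETS letters were in 20 (26.3%) against 11.9%, YY1 letters in 7 (9.21%) against 1.94%, and ERR letters in 2 (2.63%) against 0.332%. The glucocorticoid receptor half-site letters were in 9 (11.8%) against 16.4%. These are matches of letters only.

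For chronic CORT + ENZA against CORT, estimates of nuclear members lay mostly below 0 and those of mtDNA members above it. Of 90 nuclear members 72 (80.0%) were below 0, against 50.5% of all genes tested, with a median of -0.06 against 0.00. Library 18 of CORT + ENZA was the lowest of its group in 85 of these 90 members. Without it, 56 of 90 (62.2%) lay below 0, with a median of -0.02. Hepatocyte markers also lay lower in the CORT + ENZA group, with a median of 72532 summed CPM against 98908 under CORT; their part was not tested. Of 12 mtDNA members 10 were above 0, with a median of 0.20. By complex, the nuclear subunits below 0 were 32 of 36 in complex I, 2 of 4 in II, 8 of 8 in III, 11 of 12 in IV and 14 of 16 in V, while 7 of 12 assembly factors lay above 0. These counts are with all libraries. Members share libraries and scaling, so they are a description.

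The mtDNA genes in that comparison did not pass the main test. mt-Nd2 was at 5375, 6655 and 8172 CPM in chronic vehicle, 5860, 6263 and 8187 with CORT, and 6027, 9051 and 9883 with CORT + ENZA. Its log2 fold change against CORT was 0.34 ± 0.14 (edgeR adjusted p = 0.11) and against vehicle 0.36 ± 0.14 (adjusted p = 0.0729). mt-Co1 was at 17903, 21344 and 22294 CPM with CORT and 18084, 24436 and 26739 with CORT + ENZA; its log2 fold change was 0.20 ± 0.10 (adjusted p = 0.221). Without chronic libraries 11 and 18, mt-Nd2 and mt-Co1 had adjusted p of 0.0232 and 0.0349 against CORT. Library 18 was the lowest CORT + ENZA library for both genes, so leaving it out raises both estimates by itself.

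mt-Cytb and mt-Nd4, in contrast, were near 0 against CORT, at 0.08 ± 0.10 and -0.06 ± 0.11, and mt-Nd1 and mt-Nd5 were at 0.21 ± 0.12 and 0.20 ± 0.12. mt-Nd6 went the other way, with 12.6, 72.0 and 117 CPM in chronic vehicle, 19.8, 58.2 and 109 with CORT, and 14.8, 30.1 and 52.6 with CORT + ENZA. The groups overlapped, and the log2 fold change was -0.90 ± 0.46 against CORT (edgeR adjusted p = 0.227) and -1.10 ± 0.46 against vehicle (adjusted p = 0.112). The coefficient of variation of mt-Nd6 within chronic vehicle was 51.7%, against a median of 7.21 to 17.3% over nuclear members in the 7 groups.

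Complex IV has subunits with alternative isoforms, some of them named for muscle, and these marked single libraries. The liver forms were abundant: Cox4i1, Cox6a1, Cox6b1, Cox7a2, Cox8a and Ndufa4 had chronic vehicle medians of 316, 182, 213, 156, 171 and 202 CPM. Together with Cox5b and Cox7a2l, their log2 fold changes lay between -0.18 and 0.18 in the chronic comparisons and between -0.15 and 0.21 in the acute ones, with no adjusted p under 0.275. Ndufa4l2, the paralog of Ndufa4, was at 1.26 to 1.49 CPM in chronic vehicle and 1.77 to 4.14 CPM in acute vehicle livers. Cox4i2, Cox6b2 and Cox6a2 had means under 1 CPM in both tables, and Cox8c and Cox7b2 had no count in any of the 42 libraries, which allows up to 0.195 CPM in the shallowest one (3 counts; counting error only).

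The muscle forms Cox6a2 and Cox8b were highest in the 3 chronic libraries with skeletal muscle markers. Cox6a2 had 12 and 32 counts in vehicle libraries 10 and 15 and 104 in CORT + ENZA library 5, against at most 1 in each of the other 15 and 0 to 4 in each of the 24 acute libraries. Cox8b, known from muscle and brown fat, had 8, 89 and 73 counts in these libraries, against at most 4 in the other chronic and 2 in acute ones. Cox7a1, the muscle form beside Cox7a2, had 28, 65 and 54 counts, against 7 to 29 in the others, and was at 8 to 23 counts in acute libraries.

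The muscle markers Acta1 and Ckm had 194 and 117 counts in library 10, 583 and 342 in library 15, and 1864 and 1051 in library 5. The brown fat gene Ucp1 had 135 counts in library 15, 1 in library 10 and 0 in library 5. Adipoq, an adipocyte gene, had 308 counts in library 15 and 258 in library 5, against at most 37 in the 15 chronic libraries other than these 3. Both vehicle and CORT + ENZA livers held libraries with muscle markers, and in chronic CORT livers Cox6a2 did not exceed 1 count. White adipocyte markers reached 93.0 summed CPM in chronic vehicle, 35.1 in CORT + ENZA and 4.51 in CORT livers. The group medians were 0.584, 0.137 and 0.0787 CPM in the same order.

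**Figure D5:**
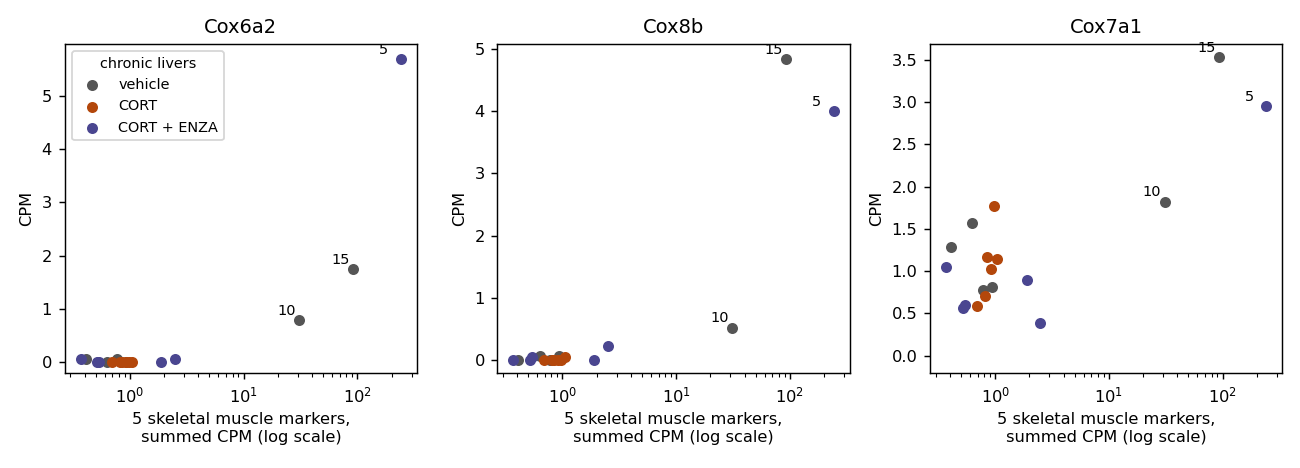
Level (CPM) of the complex IV isoform genes Cox6a2, Cox8b and Cox7a1 in the 18 chronic libraries against the summed CPM of 5 skeletal muscle markers (log scale), coloured by group. The numbered libraries 10, 15 and 5 stand right of all others, with Cox6a2 at 0.78, 1.74 and 5.69 CPM.

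Within groups, the nuclear members rose and fell together in single libraries. Vehicle library L19A held the highest level of its group in 64 of 90 nuclear members (71.1%), against 31.7% of all genes, with a median log2 value of 0.39 over the median of the other 5. CORT + ENZA library L36A was highest in 78 (86.7%), against 29.8%, with a median of 0.50. In chronic livers, vehicle library 11 was highest in 68 (75.6%, against 23.5% of all genes) and CORT + ENZA library 18 was lowest in 85 (94.4%, against 31.5%), with medians of 0.34 and -0.35. These 4 libraries were singled out in an earlier analysis of the same data for standing apart from their groups.

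The shift was uneven among complexes. In L19A it was 0.54 over complex I subunits and 0.53 over complex IV subunits, but -0.32 over the 4 complex II subunits, with Sdhd at 91.1 CPM against 132 to 154 in the other vehicle libraries. In L36A it was 0.56, 0.59 and 0.07. Cox5b, a complex IV subunit, was at 263 CPM in L19A against 153 to 179 in its group, and at 265 in L36A against 136 to 175. In L19A and L36A the median shift was 0.49 and 0.57 over nuclear members with under 1000 bases of exon. It was 0.55 and 0.57 over those with 1000 to 2000 bases, and lower, at 0.18 and 0.31, over those with 2000 or more. Measures of library makeup moved as well: mt-Nd1 counts were 45.5% of mt-Co1 counts in L19A, against 24.5 to 29.7% in its group, and 40.1% in L36A, against 25.6 to 34.97%. Mitochondrial rRNA was 0.473% of counts in L19A, against 0.251 to 0.299%, and 0.456% in L36A, against 0.236 to 0.278%; their part was not tested. In library 11 the shift of complex II was 0.15, with none of its 4 subunits highest in the group, and in library 18 it was -0.29, with all 4 lowest. Kupffer cell markers, all 6 of them counted, stood at 531 CPM in library 18 against a group median of 144; their part was not tested.

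Without L19A and L36A no acute member was called except Sdhd, as given above. Without 11 and 18 the chronic calls rose to 4 for CORT against vehicle (Ndufaf4, Ndufa1, Ndufab1 and Ndufb6, all higher), 4 for CORT + ENZA against CORT (Atp5s, mt-Co1 and mt-Nd2 higher, Sdhd lower) and 5 for CORT + ENZA against vehicle (Ndufaf4, Ndufab1, Ndufb6, mt-Nd1 and mt-Nd2, all higher). Library 11 was the highest and 18 the lowest of its group in most members, so leaving them out by itself raises most estimates. For CORT + ENZA against vehicle the nuclear median went from -0.06 to 0.04. The directions of the added calls are therefore not a separate result. Ndufa1, Ndufab1 and Ndufb6 are complex I subunits, Ndufab1 being also the mitochondrial acyl carrier protein; they are named after their values were seen. With all libraries, Ndufa1 had a log2 fold change of 0.32 ± 0.12 for CORT against vehicle (edgeR adjusted p = 0.069).

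Genes around the chain changed more often in chronic than they did in acute livers, as did all genes; this difference was not tested. In the mtDNA expression list 2 of 31 genes tested (6.45%, against 18.3% of all genes) passed with chronic CORT. Twnk, the mtDNA helicase, and Fastkd1 rose (log2 fold change 0.37 ± 0.08, edgeR adjusted p = 0.00311, and 0.38 ± 0.08, 0.00184), and Polg, the mtDNA polymerase, was lower with CORT + ENZA than with CORT (-0.24 ± 0.07, 0.0225). Tfam, the mtDNA packaging and transcription factor, was at 31.6 to 45.4 CPM in chronic vehicle and 36.8 to 42.1 with CORT (0.09 ± 0.08, adjusted p = 0.453). Polrmt, the mitochondrial RNA polymerase, stood at 0.07 ± 0.07 (adjusted p = 0.56).

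Of 17 regulators tested, 17.6% passed with chronic CORT, near the 18.3% of all genes. Among them, Esrra rose and Nr3c1 fell. Esrra, which encodes the nuclear receptor ERR alpha, was at 21.2 to 26.4 CPM in vehicle and 26.6 to 35.7 with CORT, without overlap (0.43 ± 0.08, edgeR adjusted p = 0.00101). Nr3c1, the glucocorticoid receptor, was lower, with a log2 fold change of -0.27 ± 0.08 (edgeR adjusted p = 0.0297). Ppargc1a, a coactivator of mitochondrial biogenesis, was at 9.47 to 22.7 CPM in vehicle, 8.44 to 15.9 with CORT and 8.74 to 12.8 with CORT + ENZA; only the last comparison with vehicle passed (-0.59 ± 0.19, adjusted p = 0.038). Esrra (0.24 ± 0.08, edgeR adjusted p = 0.0448) and Nrip1 (0.42 ± 0.13, 0.0318) were also called for CORT + ENZA against vehicle, both higher. For CORT + ENZA against CORT, 5.88% of the 17 regulators passed, against 11.8% of all genes. This was Yy1, which was lower (-0.26 ± 0.08, edgeR adjusted p = 0.0323). Which of the 102 members these regulators act on in these livers was not tested. As given above, 1 member was called in each chronic comparison. The share of all genes called was 18.3% for CORT against vehicle, 11.8% for CORT + ENZA against CORT and 18.6% for CORT + ENZA against vehicle.

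Among 21 genes for electron carriers and coenzyme Q, none rose and 4 fell with chronic CORT (19.05%), a share near the 18.3% of all genes. Gpd2, the glycerol-3-phosphate dehydrogenase that feeds electrons to coenzyme Q, was at 56.0 to 69.5 CPM in vehicle, 30.6 to 46.4 with CORT and 34.6 to 42.7 with CORT + ENZA, so both treated groups lay below vehicle. Its log2 fold change with CORT was -0.64 ± 0.10 (edgeR adjusted p = 0.00018). Coq8a and Coq8b, kinase-like factors of coenzyme Q synthesis, were lower (-0.64 ± 0.22, 0.0467, and -0.33 ± 0.10, 0.0245), as was the hydroxylase Coq7 (-0.38 ± 0.10, 0.0128). Coq7 was higher with CORT + ENZA than with CORT, at 19.1 to 23.1 against 12.3 to 18.3 CPM (0.48 ± 0.10, 0.00399).

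Of 36 assembly factors outside the members, 2 rose and 2 fell with chronic CORT (11.1%, against 18.3% of all genes). Coa6, a copper-delivery factor of complex IV, was at 13.2 to 19.9 CPM in vehicle and 17.3 to 33.1 with CORT (0.73 ± 0.15, edgeR adjusted p = 0.00221), and Coa5 rose by 0.20 ± 0.06 (0.0318). Atpaf1, a complex V factor, and Cox15, of heme A synthesis, were lower (-0.34 ± 0.11, 0.0365, and -0.19 ± 0.06, 0.0402). Of 77 mitochondrial ribosome genes, 2 rose and 2 fell with chronic CORT (5.19%), and the median was -0.01. Of 26 genes of mitochondrial mass and the citric acid cycle, 2 rose (Mfn1, a fusion factor, and Idh3a) and none fell (7.69%).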

How the data were processed

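RNA of 42 liver libraries was measured as 100 bp paired reads from enriched mRNA and stranded libraries, per the labels; the RNA kit was from Qiagen in the acute arm and from Macherey-Nagel in the chronic arm. The authors deposited 2 tables of raw read counts per Ensembl gene, made with STAR 2.7.3a, HTSeq 0.12.4 and build mm10, per the submitters' processing notes; no source used here names the annotation release or the strand setting of the counting. The 5 summary lines of each table were left out; reads in them that aligned to more than 1 place were 9.34 to 12.8% of all in acute and 18.6 to 22.7% in chronic libraries. Symbols, positions and exon lengths came from GENCODE M21 (GRCm38), which held 55480 of 55573 IDs.

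Each arm was fitted on its own with edgeR 4.0.16 (R 4.3.3; TMM scaling, filterByExpr with a minimum count of 10, robust quasi-likelihood) over all its libraries, with p-values adjusted over all genes tested and called under 0.05; all 102 members passed the filter. The SE was taken from the F statistic. The fits were tested on simulated data. CPM values are scaled by TMM except marker sums, isoform counts and averages over all libraries of an arm. Those averages, used also for the threshold of 1 CPM, are scaled to the library total. The members, gene lists, alternatives and the 4 libraries called apart were chosen with earlier results of these data known. Named genes were the mtDNA genes, up to 8 nuclear members per direction past the threshold, the Sdh subunits, the highest nuclear member per complex, and complex IV isoforms with their partners. In the list of regulators, 1 gene is not reported here. The motif letters were searched in RefSeq promoters on both strands. Alternatives were DESeq2 1.42.0, limma-voom (limma 3.58.1) with library weights, other scalings and filters, only the groups compared, and libraries left out.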

Additional observations from a re-analysis of the deposited data

Results flagged for a closer look

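Levels of the members named in the text, and the ratio of mtDNA-encoded to nuclear-encoded counts, were screened in each group of 6 libraries for a highest or lowest library whose gap to the nearest other, as a share of the group's range, was past Dixon's 95% critical value. Of 217 sets screened, 35 were past it, where chance gives about 1 in 20, or 10.85; members that share a library are not independent, and no cause was tested.

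In chronic vehicle library 11, this held for mt-Nd3 (3.59 CPM against 0.718 to 1.49), mt-Nd4 (4819 CPM against 3570 to 4018), mt-Co3 (15.9 CPM against 4.01 to 7.87), mt-Atp6 (18.6 CPM against 3.23 to 5.85), mt-Atp8 (3.52 CPM against 0.718 to 1.29) and Ndufab1 (76.9 CPM against 57.2 to 62.6). In acute CORT + ENZA library L36A, this held for mt-Nd4 (13108 CPM against 6795 to 8364), mt-Cytb (24586 CPM against 14230 to 17965), mt-Atp6 (15.5 CPM against 5.77 to 9.02), Cox4i1 (332 CPM against 207 to 241), Cox6b1 (252 CPM against 159 to 178), Cox7a2 (122 CPM against 75.6 to 86.2), Ndufa4 (182 CPM against 126 to 137), Cox5b (265 CPM against 136 to 175), Ndufa1 (38.8 CPM against 25.8 to 28.2) and Uqcrq (372 CPM against 194 to 250.2). In acute CORT library L26A, this held for mt-Nd6 (6.42 CPM against 2.54 to 3.95). In chronic CORT library 27, this held for mt-Co1 (17903 CPM against 20825 to 22294). In chronic CORT + ENZA library 18, this held for mt-Co1 (18084 CPM against 24322 to 26739) and Sdha (473 CPM against 589.5 to 629). In acute vehicle library L1A, this held for mt-Co2 (17 CPM against 5.82 to 9.91) and mt-Co3 (16.3 CPM against 4.34 to 7.94). In acute CORT + ENZA library L30A, this held for mt-Co3 (183 CPM against 5.09 to 12.4). In chronic CORT library 2, this held for mt-Atp8 (4.28 CPM against 0.831 to 1.89). In acute vehicle library L19A, this held for Sdhd (91.1 CPM against 132 to 154), Cox4i1 (335 CPM against 252 to 255), Cox6a1 (342 CPM against 231 to 258), Cox6b1 (258 CPM against 170.0 to 199.8), Cox7a2 (118 CPM against 81.4 to 92), Cox8a (298 CPM against 187 to 209), Ndufa4 (190.2 CPM against 119 to 132), Cox5b (263 CPM against 153 to 179) and Uqcrq (394 CPM against 221 to 243). In acute ENZA library L35A, this held for Cox8a (232 CPM against 195 to 206). In acute CORT library L32A, this held for Ndufab1 (72.6 CPM against 63.8 to 66.6).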

How the results depend on the processing

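Counts of called members are small, so single calls move them. In the acute arm, where the main fit called 0, the count was 1 with DESeq2, limma-voom or library-number sets as a term for ENZA against vehicle, 1 with limma-voom or without L19A and L36A for CORT + ENZA against ENZA, and 2 with DESeq2 or 1 with the sets for CORT + ENZA against vehicle. In the chronic arm, where it called 1 in each comparison, CORT against vehicle gave 2 with DESeq2 or limma-voom and 4 without 11 and 18. CORT + ENZA against CORT gave 0 without a low-count filter or without the libraries with muscle markers (an alternative chosen after seeing the data), 2 with DESeq2, and 4 with limma-voom or without 11 and 18. CORT + ENZA against vehicle gave 2 with DESeq2 or only the groups compared, 4 with limma-voom and 5 without 11 and 18. With 1 library left out, the counts ran from 0 to 1 for acute CORT + ENZA against vehicle (1 without vehicle L19A), from 1 to 3 for chronic CORT against vehicle (3 without vehicle 11, 2 without CORT 26), from 0 to 3 for CORT + ENZA against CORT (3 without CORT 25), and from 1 to 2 for CORT + ENZA against vehicle. Other scalings left every member count in these 9 comparisons as it was.

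All 168 alternative values of the mtDNA to nuclear ratio, including members with under 10% shared sequence (chosen after seeing the data), lay within 1 within-group SD of the main values, but those SDs are as large as some differences. With the mean log2 level over members in place of summed counts, acute CORT against vehicle went from 0.20 to 0.02 and acute CORT + ENZA against vehicle from 0.32 to 0.18; the cause was not tested. Acute CORT + ENZA against ENZA, at -0.03, was 0.01 with members under 10% shared sequence and 0.03 without ENZA L17A, so it changed sign. In the labels no 2 groups share a library number. Sets of consecutive numbers, not stated to be a block, served as a term in the acute arm, with the counts above. In the chronic arm no such set held every group, and no such fit was made. Precision is limited for mtDNA genes counted near 1 CPM.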
